A study of Homo sapiens with 4 samples.

Results

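Introns of 100 nt or less make up a small class of human introns, and 6549 of them were followed here in nascent RNA of K562 cells, an erythroleukemia line. They were chosen from the joined splice junction tables of 4 libraries: annotated junctions with a GT/AG motif, a length of at most 100 nt and at least 10 uniquely mapped reads over the 4 libraries. Of 455565 junctions on the main chromosomes 188468 were annotated, and 8576 of those were GT/AG introns of 100 nt or less. The other 2027 of the 8576 fell below 10 reads, 202 of them with no uniquely mapped read, and are not described. The length limit is arbitrary: 151 introns of exactly 100 nt were inside, with a median of 76 reads, and 192 introns of 101 nt were outside, with a median of 84 reads. The comparison class was the 42852 longer annotated introns of the 2929 genes that hold the short ones.

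The study sequenced chromatin-bound RNA from 2 libraries labelled SF3B1 wild type and 2 labelled SF3B1 K700E, the recurrent hotspot substitution of the U2 snRNP subunit SF3B1. A treatment text common to all 4 samples says that the modified allele was switched on with doxycycline at 1 µg/ml and that cells were taken at 4 days. Whether an inducible allele was also present in wild type is not stated, and the labels do not say that replicates were separate cultures, so every p-value rests on the spread among these 4 libraries, and that spread may be technical. All extraction buffers held 25 µM α-amanitin, an inhibitor of RNA polymerase II, and polyadenylated RNA was removed 3 times. The libraries held 3582592 to 5322414 uniquely mapped junction reads. The labels call the cells epithelial. Of 20 erythroid marker genes 14 had enough spliced reads to test, summing to 2141 to 4015 CPM (spliced reads scaled to the library's size) per library. Of 15 epithelial markers 4 did (EPCAM, KRT8, KRT18 and KRT19, 348 to 483 CPM), and CDH1, KRT5, KRT7, ESRP1, GRHL2 and CDH3 had no annotated junction in the files.

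An intron is recognised by its 5′ splice site, a branch-point adenosine, a run of pyrimidines and the AG at its 3′ end, the acceptor. U2AF binds the pyrimidines and the AG, and the U2 snRNP with SF3B1 clamps the branch-point region. In a very short intron these parts crowd together: the 2 splice sites are paired across the intron rather than across the exon. RBM17 (SPF45) with SAP30BP is known to serve a subset of human short introns whose pyrimidine run is too short for U2AF. Cells with SF3B1 K700E are known for taking acceptors a short way upstream of the normal one, so in a short intron the mutant acceptor would leave an even shorter intron.

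Sequences could be read for 1607 of the 6549 short introns, those that lie inside an exon of another GENCODE 29 transcript (GRCh38), mostly transcripts annotated as retaining the intron, so they are not a random sample. The first set shows 5 coding-region introns with reads at an acceptor 10 to 30 nt upstream. Capitals mark the upstream AG and the annotated AG at the end, and the stretch added to the exon runs from the base after the upstream AG to the end of the line, the annotated AG included.
ASIC3: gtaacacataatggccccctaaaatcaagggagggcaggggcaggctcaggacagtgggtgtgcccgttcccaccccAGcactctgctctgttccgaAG
PSMC5: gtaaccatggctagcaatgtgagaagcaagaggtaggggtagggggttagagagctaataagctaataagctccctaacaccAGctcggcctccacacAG
VCP: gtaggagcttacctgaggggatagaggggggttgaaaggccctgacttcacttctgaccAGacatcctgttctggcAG
ARFGAP2: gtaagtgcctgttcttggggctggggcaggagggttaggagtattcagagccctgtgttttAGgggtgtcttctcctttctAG
MUS81: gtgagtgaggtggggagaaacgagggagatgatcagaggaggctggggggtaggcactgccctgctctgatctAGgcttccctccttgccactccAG
They lie at chr7:151052475-151052573 on the plus strand (ASIC3, an acid-sensing ion channel), chr17:63830936-63831035 on the plus strand (PSMC5, an ATPase of the proteasome cap), chr9:35062139-35062216 on the minus strand (VCP, the AAA ATPase p97), chr11:47175099-47175181 on the minus strand (ARFGAP2, a GTPase-activating protein of Golgi transport) and chr11:65863503-65863599 on the plus strand (MUS81, a structure-specific endonuclease). In the 78-nt VCP intron the upstream AG sits 17 nt before the end and would leave an intron of 61 nt.

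The second set shows the shortest coding-region intron of the published ultra-short list and 4 of the most read introns, all in coding regions, with every run of 3 or more G in capitals.
HNRNPH1: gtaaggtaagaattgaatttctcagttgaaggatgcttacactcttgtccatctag
EEF1A1 intron 4: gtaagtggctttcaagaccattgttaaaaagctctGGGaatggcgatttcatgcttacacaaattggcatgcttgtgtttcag
EEF1A1 intron 6: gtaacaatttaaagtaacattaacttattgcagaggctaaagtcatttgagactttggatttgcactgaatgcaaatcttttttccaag
SRRM2: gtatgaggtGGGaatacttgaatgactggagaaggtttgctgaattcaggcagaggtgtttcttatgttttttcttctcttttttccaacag
RPS18: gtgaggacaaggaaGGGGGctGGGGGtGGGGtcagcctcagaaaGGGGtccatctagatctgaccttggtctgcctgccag
They lie at chr5:179617933-179617988 on the minus strand (HNRNPH1, 56 nt, 37.5% G or C), chr6:73518849-73518931 and chr6:73518265-73518353 on the minus strand (EEF1A1, 41.0% and 31.5%), chr16:2759048-2759139 on the plus strand (SRRM2, 39.1%) and chr6:33275884-33275964 on the plus strand (RPS18, 61.7%). Over the 1607 introns with sequence the median share of G and C was 62.7%, with quartiles of 52.6% and 69.0%, so the introns of EEF1A1, SRRM2 and HNRNPH1 lay in the low quartile. The 3018 longer introns of up to 1000 nt with sequence had a median of 57.3%. The triplet GGG, counted on the transcribed strand with overlaps, was found at a median of 4.17 per 100 nt in the short introns and 3.23 in the longer ones. An AG lying 10 to 30 nt before the end was present in 53.6% of short introns (861) and 52.3% of longer ones, so the 2 classes offered such dinucleotides about equally often. CTNA, a minimal branch-point motif, had its A 10 to 50 nt before the end in 68.5% of short and 64.0% of longer introns, at a median of 22 and 24 nt. The 20 bases before the last 3 were C or T at a median of 75% in both classes. These are matches of letters, not mapped sites.

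Few introns were 70 nt or shorter, and the most common range was 81 to 90 nt. Only 10 of the 6549 introns were 60 nt or shorter and 92 were 61 to 70 nt, while 1337 were 71 to 80 nt, 2821 were 81 to 90 nt and 2289 were 91 to 100 nt. The shortest, 21 nt on chromosome 19 (10119067 to 10119087), equals the smallest gap that the aligner calls an intron by default and had no gene in GENCODE 29. It had 9 and 4 reads in wild type and 3 and 12 in the mutant. The next were CIRBP (45 nt, 5′ UTR, 15 to 24 reads a library), B2M (52 nt, 3′ UTR, 2 to 4 reads), and the noncoding genes AC129510.2 (52 nt) and AC005911.1 (55 nt), with at most 7 reads a library. The 56-nt intron of HNRNPH1, a splicing regulator of the hnRNP family, was the exception: it had 395 and 453 reads in wild type and 457 and 648 in the mutant. The 10 introns of 60 nt or less had a median of 25 reads over the 4 libraries, against 53.5 at 61 to 70 nt, 74 at 71 to 80 nt, 85 at 81 to 90 nt and 86 at 91 to 100 nt.

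**Figure D1:**
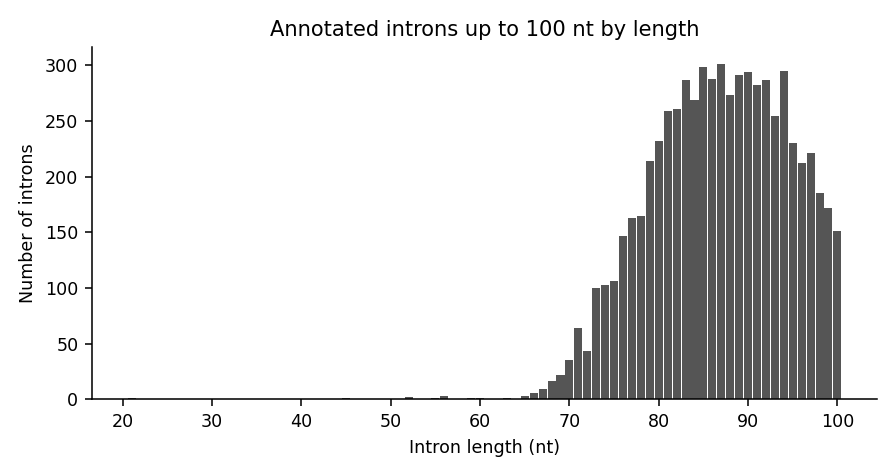
Number of introns (vertical axis) at each length in nt (horizontal axis) among the 6549 annotated introns of 100 nt or less with at least 10 reads. Counts are near 0 up to the upper 60s and rise steeply from about 70 nt.

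Most short introns sat in coding sequence. Of the 6549, 6279 belonged to a single gene, 268 to 2 or 3 overlapping genes and 2 to none. Of the 6279, 94.5% interrupted coding sequence, against 91.1% of the longer introns of the same genes, and 1.07% lay in a 5′ UTR, against 3.80%. A first intron was short less often (3.52% of short introns against 7.66% of longer ones) and a last intron more often (9.08% against 6.61%). The exon before a short intron had a median length of 115 nt, against 123 nt. Chromosome 19 had the largest share of short introns among its annotated introns (12.4%), followed by chromosome 16 (9.39%), and chromosome 21 the smallest (2.33%). The short introns were spread thinly: 1691 genes held 1, 584 held 2, 470 held 3 to 5, 140 held 6 to 10 and 44 held more than 10.

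Of the genes with most short introns, COL7A1, which encodes the collagen of anchoring fibrils, held 29 among its 85 introns with reads, ANKRD36C, an ankyrin repeat gene with close paralogs, 26 of 77, and CPSF1, the largest subunit of the cleavage and polyadenylation specificity factor, 26 of 37. Short introns took 75.02% and 73.3% of the reads over CPSF1 junctions in wild type and 74.3% and 75.9% in the mutant. They took 32.7% and 35.9% of the COL7A1 reads in wild type and 34.6% and 31.2% in the mutant. In ANKRD36C, whose reads may be shared with its paralogs, the shares were 34.8% and 34.6% in wild type and 35.2% and 36.4% in the mutant. The ranges of the genotypes touched or overlapped in COL7A1 and CPSF1, and in none of the 3 genes did an intron pass the within-gene test described next.

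Use of each short intron was compared between the genotypes relative to the other annotated introns of its gene. No short intron rose or fell past the threshold: 0 of 6242 tested were called in either direction by edgeR's quasi-likelihood test at an adjusted p of 0.05. The background was as sparse, with 0.0102% of 117973 annotated junctions called higher and 0.000848% called lower, and 0.007% of the longer introns of the same genes called higher. The unadjusted p was below 0.05 for 35 short introns with higher use (0.561%) and 24 with lower use (0.384%). The same shares were 0.943% and 0.586% over the longer introns of these genes, and 0.987% and 0.58% over all annotated junctions. A less conservative quasi-Poisson fit with a term per library, added after the data were seen, also called 0 short introns, against 0.00593% of all annotated junctions called higher. It gave 110 short introns higher (1.76%) and 114 lower (1.83%) with an unadjusted p below 0.05, against 2.25% and 1.95% over all annotated junctions and 2.12% and 1.86% over the longer introns. The median log2 change was 0.01 (quartiles -0.22 and 0.26), and 0.01 for the longer introns (quartiles -0.23 and 0.27).

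Well-read introns stayed close to 0. Among 1291 short introns with at least 200 reads, 97.8% had a log2 change between -0.5 and 0.5 and none was beyond 1 in either direction. All 320 with at least 500 reads stayed between -0.5 and 0.5. The most read were introns of EEF1A1, the translation elongation factor that carries aminoacyl-tRNA. Its intron 4, shown above, took 15.6% and 13.5% of the reads over the gene's junctions in wild type and 15.6% and 15.98% in the mutant. Its intron 5 (chr6:73518611-73518697) took 8.42% and 8.36% in wild type and 9.75% and 9.70% in the mutant, a log2 change of 0.21 that did not pass (edgeR adjusted p 1.00). Both mutant libraries were above both wild-type libraries at intron 5 and also at intron 4, where the closest libraries had 15.58% and 15.62%. The share of all introns that separate in this way was not counted. In SRRM2, a scaffold of nuclear speckles, the 92-nt intron shown above took 12.4% and 11.3% in wild type and 11.7% and 12.8% in the mutant. The 81-nt intron of the ribosomal protein gene RPS18 took 26.04% and 29.7% in wild type and 26.9% and 28.95% in the mutant. The introns of HNRNPA2B1 (75 nt), SFPQ (98 nt) and HNRNPA3 (88 nt), all RNA-binding protein genes, had log2 changes of -0.08, 0.03 and -0.06. The 89-nt intron of the noncoding gene AL713998.1 was the only annotated intron of its gene, so it had no test; it had 1293 and 1479 reads in wild type and 1733 and 2446 in the mutant.

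**Figure D2:**
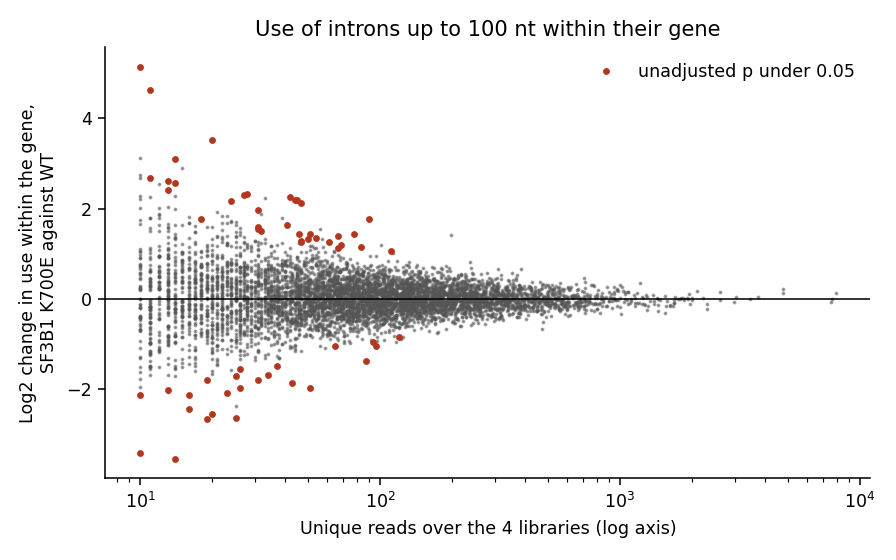
Log2 change in use within the gene between SF3B1 K700E and wild type (vertical axis) against unique reads over the 4 libraries (horizontal axis, log scale) for the 6242 tested short introns, each a point, with the 59 points of unadjusted p under 0.05 in red. Points close in on 0 as reads increase, and no point beyond 1 has 200 reads or more.

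The introns with the smallest p-values were thinly read except that of SKIV2L, and none passed (all edgeR adjusted p 1.00). The SKIV2L intron had 90 reads over the 4 libraries, against a median of 82 over all short introns. The 84-nt intron of SKIV2L (chr6:31968539-31968622), a gene for an RNA helicase of the Ski complex, had 5 and 7 reads in wild type and 33 and 45 in the mutant, or 0.371% and 0.594% of the gene's junction reads against 1.68% and 1.60%. The 97-nt intron of LSR (chr19:35266739-35266835), a lipoprotein receptor gene of cell junctions, had 3 and 3 reads in wild type and 17 and 22 in the mutant. The 75-nt intron of USP19 (chr3:49117362-49117436), a deubiquitinase gene, had 1 and 4 reads in wild type and 16 and 23 in the mutant. ABCF3 (90 nt) had no read in wild type and 5 and 5 in the mutant, and STEAP1B (95 nt) had 1 and 0 against 14 and 5. These introns, like those in the other direction below, were picked by p-value, so the separation of the genotypes in them follows from that choice. LSR, USP19, ABCF3 and STEAP1B met the limit of 10 reads only through the mutant libraries, and HIP1R and ARPC1B (below) only through the wild-type ones. In the other direction DNAH14, an axonemal dynein heavy chain gene, had 13 and 28 reads over a 92-nt intron in wild type and 3 and 7 in the mutant. HERC3, a ubiquitin ligase gene, had 16 and 14 against 6 and 7 over a 92-nt intron, and HIP1R, an adaptor of clathrin-mediated endocytosis, 14 and 8 against 0 and 3 over a 99-nt intron. ARPC1B (94 nt, 3′ UTR), a subunit gene of the Arp2/3 complex, had 9 and 4 against 0 and 1, and the AT-rich 78-nt intron of APPBP2 (20.5% G or C) had 4 and 5 against 0 and 1.

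Short introns in the gene lists of splicing, transcription and metabolism showed the same picture. Of 24 genes for recognition of the 3′ splice site, 12 held 21 short introns, and of the 20 tested 0 were called and 0 had an unadjusted p under 0.05 (median log2 change 0.06, range -0.41 to 0.46, against 0.01 over all junctions). SF3B1 itself holds 2, of 85 nt and 97 nt. The first took 6.34% and 6.87% of the reads over its junctions in wild type and 5.23% and 6.11% in the mutant, and the second 3.17% and 3.88% against 4.39% and 4.06%. The log2 changes had opposite signs (-0.23 and 0.26), and neither passed. The 28 short introns of SR protein and hnRNP genes, 38 of RNA polymerase II and elongation genes, 33 of DNA replication genes and 15 of glycolysis genes gave 0 calls and 0 introns with an unadjusted p under 0.05, with list medians of 0.03, -0.02, -0.00 and 0.04. The 4 genes known for ultra-short introns held 16 in 3 genes, HNRNPH1, EML3 and NDOR1, also with 0 calls. The 56-nt intron of HNRNPH1 took 12.5% and 13.4% of the reads over the gene's junctions in wild type and 11.8% and 12.1% in the mutant, a log2 change of -0.11.

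Summed per gene, reads over short introns relative to longer ones did not pass the test in any gene. In 2883 genes with enough reads in both classes, the reads over short introns relative to longer introns gave 0 genes called (0.0% in each direction; edgeR), 11 higher (0.382%) and 9 lower (0.312%) with an unadjusted p below 0.05, and a median log2 change of -0.00 with quartiles of -0.16 and 0.19. The ratio was higher in the mutant in 1429 genes and lower in 1454. The smallest p-values again belonged to genes with a single thinly read short intron. In POLG, the mitochondrial DNA polymerase gene, the short intron took 0.201% and 0.348% of the reads over the gene's junctions in wild type and 1.30% and 1.59% in the mutant. In ZNF143, a transcription factor gene, it took 6.20% and 5.49% against 1.91% and 0.803%. In POFUT2, a protein O-fucosyltransferase gene, it took 2.87% and 3.39% against 1.15% and 0.840%. None of these passed (edgeR adjusted p 0.999). Over all these genes together, short introns took 13.5% and 12.5% of annotated-intron reads in wild type and 12.3% and 13.5% in the mutant, which overlap (difference -0.122 percentage points, exact permutation p 0.667, 2-sided; the smallest p that 2 against 2 allows is 0.333). The first wild-type and the second mutant library were the higher ones. The same 2 libraries had the smaller share of reads over introns longer than 10 kb (7.89% and 7.47%, against 8.35% and 8.21%). Among short introns with sequence, the 538 lowest in G and C took 41.8% and 45.2% of reads in these 2 libraries and 49.2% and 52.2% in the other 2. The part of these differences in the result was not tested.

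Acceptors just upstream behaved differently at the 2 intron classes. SF3B1 K700E cells used acceptors 10 to 30 nt upstream of the annotated one about as rarely as wild type at short introns, and about 2 times as often at longer introns of the same genes. At 6167 short introns (the most read annotated intron of its donor), upstream acceptors took 0.0726% and 0.0731% of reads in wild type and 0.0736% and 0.0864% in the mutant, where the share is of these reads plus reads over the annotated intron. Both mutant libraries lay above both wild-type libraries, the first by a margin far smaller than its interval (exact permutation p 0.333), and the 95% Wilson intervals of the 4 libraries overlapped (0.0621% to 0.0848% in the first wild-type library, 0.0769% to 0.0972% in the second mutant library). At 40682 longer introns the shares were 0.0776% and 0.0832% in wild type and 0.178% and 0.156% in the mutant. Here both mutant libraries stood apart from both wild-type libraries, with intervals that did not meet (at most 0.0881% in wild type, at least 0.151% in the mutant). In wild type the shares of the 2 classes lay close together.

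The difference between the classes was itself compared. The log2 odds of an upstream acceptor at short minus longer introns were -0.10 and -0.19 in wild type and -1.28 and -0.85 in the mutant. The mutant mean minus the wild-type mean was -0.92, and the groups did not overlap (exact permutation p 0.333, the smallest possible). It lay between -1.16 and -0.75 under the other windows, read classes, overhangs and sets of acceptors tried. Sites were about as common in both classes: 254 of 6167 short introns (4.12%) had 1 or more such acceptor with reads, and 1794 of 40682 longer ones (4.41%). By uniquely mapped reads, 64 of the short introns' acceptors were seen only in wild type, 100 only in the mutant and 80 in both. Of the longer introns' acceptors the numbers were 299, 1045 and 441. The mutant libraries were deeper (4304213 and 5322414 junction reads, against 3582592 and 3687513), and the part of depth in these numbers was not tested.

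The ratio of the mutant share to the wild-type share was larger at longer introns. Introns of 71 to 80 nt had upstream shares of 0.0592% and 0.0533% in wild type and 0.0424% and 0.0674% in the mutant, and those of 81 to 90 nt 0.0542% and 0.0479% against 0.0407% and 0.0550%. In both ranges the genotypes overlapped. Introns of 91 to 100 nt had 0.0977% and 0.115% in wild type and 0.128% and 0.131% in the mutant, a ratio of means of 1.22. The ratio was 1.55 at 101 to 150 nt (0.151% and 0.148% against 0.251% and 0.214%) and 1.80 at 151 to 300 nt. It reached 2.18 at 301 to 1000 nt, 2.40 at 1001 to 10000 nt (0.0544% and 0.0712% against 0.162% and 0.140%) and 3.04 above that. The difference of means did not rise in the same way. It was 0.0828 percentage points at 101 to 150 nt, then 0.0861, 0.0923 and 0.0881, and 0.0588 above 10000 nt. Over these ranges the wild-type mean fell from 0.149% to 0.0288%. From 91 nt on, both mutant libraries were above both wild-type libraries in every length range. Introns of 70 nt or less had 4 such acceptors in all and too few reads to read (5, 1, 2 and 7).

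**Figure D3:**
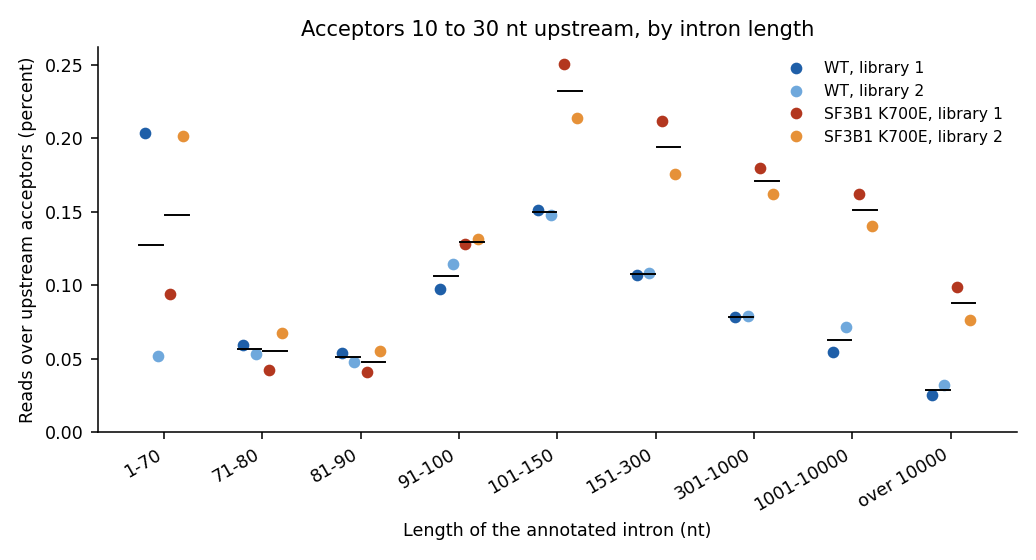
Reads over acceptors 10 to 30 nt upstream, as percent of these plus reads over the annotated intron (vertical axis), by length of the annotated intron in nt (horizontal axis). Each point is a library and each bar a group mean; the genotypes overlap up to 90 nt and separate from 91 nt on, with ratios of means from 1.22 at 91 to 100 nt to 3.04 above 10000 nt.

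The same reads were sorted by the length of the intron that the upstream acceptor leaves, a view chosen after the data were seen. Values are RPM, scaled to the annotated-junction reads of each library. Acceptors that leave 60 nt or less had 9.08 and 5.69 in wild type and 4.17 and 7.70 in the mutant. Acceptors that leave 61 to 70 nt had 17.0 and 14.8 in wild type and 13.2 and 16.8 in the mutant, and those that leave 71 to 80 nt 22.8 and 25.6 against 22.5 and 30.02. None of these 3 ranges differed beyond the spread of libraries. Acceptors that leave 81 to 90 nt had 20.5 and 15.9 in wild type and 33.6 and 36.7 in the mutant, a ratio of means of 1.93. Acceptors that leave 91 to 100 nt had 9.96 and 7.68 against 15.9 and 11.7. Above that the ratio of means was 1.48 at 101 to 150 nt, 1.82 at 151 to 300 nt, 2.16 at 301 to 1000 nt and 2.44 at 1001 to 10000 nt. Of the 255 upstream acceptors of short introns 130 would leave less than 70 nt (median 69 nt, shortest 42 nt). For the longer introns this cannot occur, since the window ends 30 nt upstream. Only 19 of the 255 leave 81 to 90 nt and they had 7 and 18 reads in wild type and 27 and 43 in the mutant. Short introns gave 45 of 45, 96 of 96 and 95 of 114 acceptors in the ranges up to 80 nt. At 81 to 90 nt they gave 19 of 85, and above that 0. This view therefore largely repeats the split into short and longer introns, and length left cannot be told apart from intron class.

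**Figure D4:**
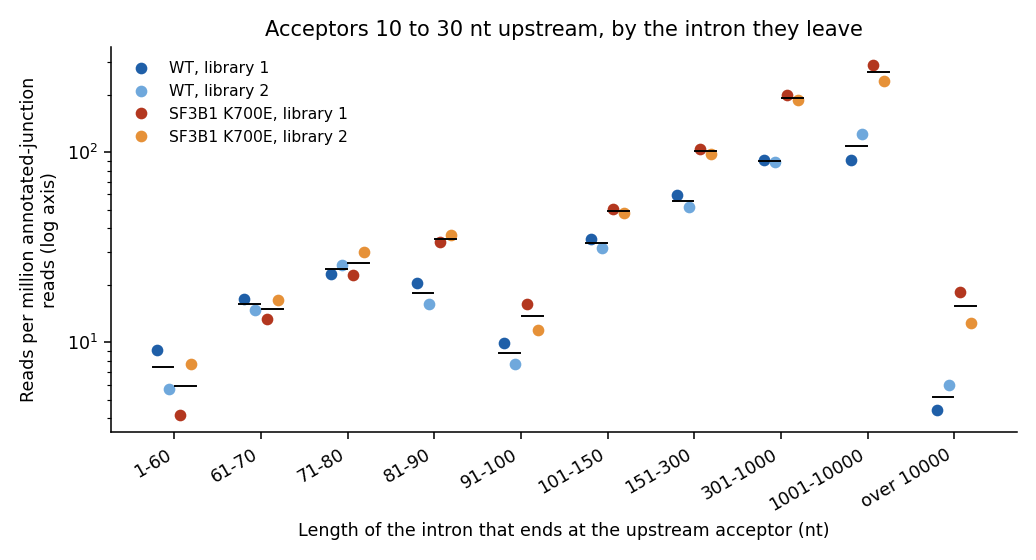
RPM (scaled to annotated-junction reads) over acceptors 10 to 30 nt upstream (vertical axis, log scale) by length in nt of the intron they leave (horizontal axis), over short and longer introns of the same genes. Each point is a library and each bar a group mean. Wild type and mutant mix up to 80 nt and the mutant is higher in every range from 81 nt on. Ranges up to 80 nt hold mainly acceptors of short introns, and ranges from 81 nt on mainly or only those of longer introns.

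The acceptors were also sorted by their distance from the annotated one. Acceptors 10 to 15 nt upstream took 0.00735% and 0.00747% in wild type (16 and 15 reads) and 0.0131% and 0.0128% in the mutant (30 and 41 reads), over 33 acceptors, and did not overlap between the genotypes. Acceptors 16 to 20 nt upstream took 0.0285% and 0.0378% against 0.0309% and 0.0420%, and those 21 to 25 nt upstream 0.0289% and 0.0164% against 0.0226% and 0.0252%, which overlap. Those 26 to 30 nt upstream were lower in both mutant libraries (0.00781% and 0.0115% against 0.00697% and 0.00654%). At longer introns both mutant libraries were higher in all 4 of these ranges, with 0.0240% and 0.0252% against 0.0515% and 0.0491% at 10 to 15 nt. Each of these comparisons is 2 libraries against 2.

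Single upstream acceptors at short introns rarely had enough reads. Of the 255, 13 had at least 10 reads and were tested within the junctions of their donor. None of the 13 was called by edgeR, against 0.133% of 23366 junctions of shared donors called higher and 0.00428% called lower. With an unadjusted p below 0.05 there were 2 higher and 0 lower, where all junctions of shared donors gave 2.46% and 0.715%, and the median log2 change was 0.33. Of the 13, 2 (15.4%) were higher in both mutant libraries than in both wild-type ones and 3 (23.1%) were lower, against 19.2% and 18.7% over all junctions of shared donors. The measures differ. Shares of upstream acceptors are of their reads plus those of the annotated intron, and shares over all junctions are of all reads tested at the donor. At longer introns of the same genes 173 upstream acceptors were tested: 8 were called higher and 0 lower. In 90 (52.0%) both mutant libraries exceeded both wild-type ones, in 6 both were below, and the median log2 change was 0.86. Acceptors high in the deeper mutant libraries meet the limit of 10 reads more easily, so these numbers follow in part from that limit. How large that part is was not tested. The count of 8 rests on both mutant libraries: it was 4 and 5 without the first and the second wild-type library, and 2 and 1 without the first and the second mutant library.

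The most read upstream acceptor, 20 nt upstream in the 89-nt intron of SUPT5H (chr19:39469173-39469261), a gene for the elongation factor SPT5, took 7.69% and 10.4% in wild type and 2.17% and 7.65% in the mutant. In CNOT1 (chr16:58542336-58542427), the scaffold of the CCR4-NOT deadenylase, an acceptor 19 nt upstream took 12.3% and 13.1% in wild type and 6.06% and 6.49% in the mutant. Both were lower in both mutant libraries, and neither passed (unadjusted p 0.383 and 0.175). The annotated introns carried 53 to 181 reads a library there. In YTHDC1, a nuclear reader of methylated adenosine, an annotated acceptor 24 nt upstream took 9.09% and 14.8% in wild type and 24.0% and 12.8% in the mutant, which overlap. In HNRNPDL, an hnRNP gene, an acceptor 22 nt upstream took 2.62% and 0.467% in wild type and 2.22% and 2.29% in the mutant, which also overlap.

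The acceptors with an unadjusted p under 0.05 were in USP15 and EFEMP2. Both met the limit of 10 reads only through the mutant libraries and were picked by p-value. Their higher shares in the mutant therefore follow from that choice. In the 97-nt intron of USP15 (chr12:62389700-62389796), a deubiquitinase gene, an acceptor 14 nt upstream would leave 83 nt. It took 3.70% and 0.0% in wild type (2 and 0 reads) and 8.43% and 13.2% in the mutant (7 and 9 reads), a log2 change of 2.62 (unadjusted p 0.0169, edgeR adjusted p 1.00). In the 88-nt intron of EFEMP2 (chr11:65868422-65868509), which encodes the extracellular matrix protein fibulin-4, an acceptor 19 nt upstream would leave 69 nt. It took 0.0% and 16.7% in wild type (0 and 1 reads) and 60% and 100% in the mutant (3 and 10 reads), and the annotated intron had 9 and 5 reads in wild type and 2 and 0 in the mutant. It was the largest shift among the 13 and did not pass with edgeR (adjusted p 0.833); the quasi-Poisson fit added after the data were seen called it (adjusted p 0.0378), as it did 0.454% of all junctions of shared donors in that direction. The sequences of these 2 introns are not shown.

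The remaining tested acceptors overlapped between the genotypes or rested on very few reads. The 71-nt intron of NRBP2, a pseudokinase gene, had an acceptor that leaves 53 nt and took 5.17% and 2.703% in wild type and 4.96% and 4.57% in the mutant. In PLEKHG4 an annotated acceptor 13 nt upstream took 15.8% and 21.4% in wild type and 10% and 27.6% in the mutant. In WDR83 an annotated acceptor 16 nt upstream took 0.0% and 66.7% in wild type (0 and 4 reads) and 44.4% and 55.6% in the mutant (4 and 5 reads). Both overlapped between the genotypes. In ASIC3 and PSMC5, whose sequences are shown above, annotated acceptors 20 and 16 nt upstream took 26.7% and 7.69% against 9.52% and 10.3%, and 4.17% and 8.33% against 5.88% and 23.3%. The acceptor 17 nt upstream in VCP had 1 and 0 reads in wild type and 0 and 8 in the mutant, all mutant reads in a single library. ARFGAP2 had 1 and 1 reads in wild type and 4 and 1 in the mutant, and MUS81 1 and 2 against 2 and 2, and like VCP they were below the 10 reads needed for the test. In WDR6 (100 nt) the acceptor took 7.50% and 7.14% in wild type and 0.0% and 5.13% in the mutant, the third of the 13 that was lower in both mutant libraries.

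Of 5 other kinds of ends at short introns, 4 overlapped between the genotypes. Junctions from the same donor that end anywhere inside the intron took 0.118% and 0.104% in wild type and 0.110% and 0.125% in the mutant. Acceptors up to 100 nt downstream took 0.411% and 0.399% against 0.378% and 0.463%, and donors up to 100 nt upstream 0.332% and 0.282% against 0.259% and 0.296%. Donors inside the intron were the rarest at 0.0303% and 0.0304% against 0.0257% and 0.0280%. For this kind the genotypes did not overlap and the mutant was lower (difference -0.00350 percentage points, exact permutation p 0.333). Junctions that span the short intron with both ends outside took 0.666% and 0.670% against 0.768% and 0.650%. Of 484 junctions tested at 232 donors of short introns, 0 were called by edgeR, against 0.133% called higher and 0.00428% called lower over all 23366 junctions of shared donors. An unadjusted p below 0.05 was found for 7 in the higher and 3 in the lower direction, where all junctions of shared donors gave 2.46% and 0.715%.

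Reads over a short intron were close to those over its longer neighbours. For 4765 short introns with a longer annotated intron on either side in a transcript, the median log2 ratio of reads to the mean of those neighbours was 0.01 and 0.05 in wild type and 0.04 and 0.02 in the mutant. The spread over introns was wide, with quartiles of -0.50 and 0.48 in the first wild-type library. The ratio depended on length in every library. The 2 introns of 60 nt or less with such neighbours are set aside. Of the other ranges it was lowest at 61 to 70 nt (-0.46 and -0.42 in wild type, -0.50 and -0.31 in the mutant, 56 introns), near -0.1 at 71 to 80 nt (-0.12, -0.07, -0.11 and -0.12, 966 introns) and above 0 at 91 to 100 nt (0.11, 0.13, 0.09 and 0.08, 1687 introns). The genotypes overlapped at 61 to 70 nt and at 71 to 80 nt. At 91 to 100 nt they did not, and the mutant was lower. In 138 introns the ratio was -1 or lower in all 4 libraries, among them CIRBP (-2.84, -3.02, -2.50 and -3.21), a 5′ UTR intron of a cold-inducible RNA-binding protein gene, and in 74 it was 1 or higher in all 4, among them the 56-nt intron of HNRNPH1 (2.13, 1.56, 1.26 and 1.78).

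**Figure D5:**
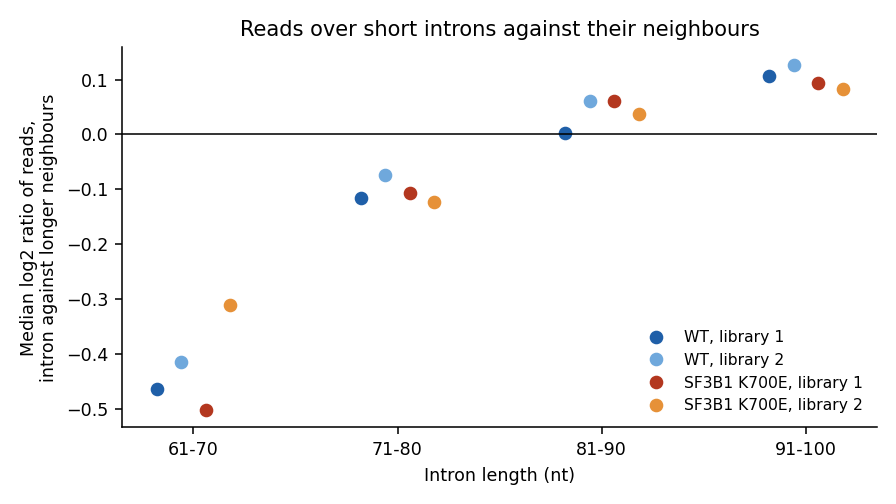
Median log2 ratio of reads over a short intron to the mean over its nearest longer neighbours (vertical axis) by intron length in nt (horizontal axis), a point per library. The ratio is below -0.3 at 61 to 70 nt and between 0.08 and 0.13 at 91 to 100 nt in all 4 libraries.

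Spliced reads of genes whose products recognise the 3′ splice site did not pass the test in any case. Of 24 listed genes 22 were tested and 0 were called by edgeR's quasi-likelihood test, against 0.333% of 10827 genes called higher and 0.6% called lower; 1 had an unadjusted p below 0.05, as had 3.67% of all genes in the higher and 6.44% in the lower direction. That gene was RBM17, whose product serves short introns with a weak pyrimidine run: it had 355 and 307 CPM in wild type and 189 and 246 CPM in the mutant, with both mutant libraries below both wild-type ones. The change on the log2 scale was -0.61 (SE 0.23, edgeR adjusted p 0.374). Its partner SAP30BP had 193 and 182 CPM in wild type and 174 and 212 CPM in the mutant. U2AF2, the subunit that binds the pyrimidine run, had 259 and 224 CPM against 247 and 338 CPM. SUGP1, a cofactor known to be lost from the complex with mutant SF3B1, had 80.7 and 65.2 CPM against 61.1 and 66.3 CPM. SF3B1 itself had 897 and 1016 CPM in wild type and 845 and 702 CPM in the mutant (adjusted p 0.747). The files hold positions and read numbers without the bases read, so the K700E allele itself was not checked.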

How the data were processed

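Chromatin-bound RNA of 2 wild-type and 2 SF3B1 K700E libraries was analysed from splice junction tables. The deposited values are counts of uniquely and multiply mapped reads per junction, which the authors made with STAR 2.7.10a in a single pass, per the file headers and the submitters' processing notes, on GRCh38.p12 with GENCODE 27 junctions (353424 in the index) and 1887 added from GENCODE 22. The labels name hg38. Uniquely mapped counts were used here. Genes, positions and sequences came from GENCODE 29, which held 99.7% of the annotated junctions. The members, gene lists and tests were chosen with earlier results of these data known.

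Junctions with at least 10 reads were fitted together with edgeR 4.0.16 (quasi-likelihood, TMM scaling, junction use by diffSpliceDGE) in R 4.3.3. Benjamini-Hochberg adjustment was over all junctions tested, with a threshold of 0.05. The fit within the gene took annotated junctions only. The fit within the shared donor took junctions with a known splice motif, annotated or not. Shares per library have 95% Wilson intervals, which cover counting error only, and were compared by the exact 2-sided permutation test over libraries, whose smallest p is 0.333. Introns named in the text were those called or, where fewer than 5 were, the 5 with the smallest p in each direction, the 10 most read, the 5 shortest, those with the 10 most read upstream acceptors, the 3 genes with most members, and members of the lists. Further genes with sequences (VCP, ARFGAP2, MUS81) and the lower-ranked tested acceptors were chosen after their values were seen. limma 3.58.1 and DESeq2 1.42.0 served as alternatives. The junction-use script was tested on simulated data with a fixed dispersion of 0.02. At 50 or more reads, edgeR recovered 9.09% of junctions changed 2-fold, 80% of those changed 4-fold and 98.5% of those changed 8-fold (117972 junctions). Of the unchanged simulated junctions 3.64% had an unadjusted p below 0.05, against 0.987% higher and 0.58% lower among the real ones. Recovery in the real data may therefore be lower. For junctions of shared donors, also at 50 or more reads, edgeR recovered 0.0%, 4.48% and 13.6% (23366 junctions). No upstream acceptor of a short intron had more than 37 reads.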

Additional observations from a re-analysis of the deposited data

How the results depend on the processing

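Leaving out each library in turn moved the difference in the share of reads over short introns between -0.700 and 0.455 percentage points, and it was 0.0303 against longer introns of up to 1000 nt only, so its sign is not settled. The difference moved between -0.00136 and 0.0135 for acceptors inside the intron (-0.000911 without the second wild-type library), between -0.0270 and 0.0581 for acceptors downstream, between -0.0180 and 0.0998 for spanning junctions (-0.118 with multiply mapped reads) and between -0.0228 and 0.0204 for the ratio to neighbours (0.00918 without the second mutant library). Without the first wild-type or the first mutant library the share of reads gave 0.397 and 0.455. The short-minus-longer log2 odds of upstream acceptors stayed between -1.14 and -0.71 when a library was left out. Single upstream acceptors called at longer introns, 8 with edgeR, numbered 1 to 5 without each library in turn, 3 with limma voom and 21 with the quasi-Poisson fit, and at short introns the quasi-Poisson fit called 1, EFEMP2. The cause was not tested.

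Same-numbered libraries did not deviate together (correlation -0.20 over 119371 junctions, with 2 pairs). As this is a single contrast among 4 libraries, it cannot show whether the numbers pair the samples. With the replicate block 0 short introns were called, as without it. With the crossed pairing, added after seeing the data, 0 short introns and 1 factor gene, RBM17, were called. The share of all genes called with that pairing was not counted, so the RBM17 call has no background beside it. Junction use of short introns and short against longer introns per gene gave 0 calls under every alternative run. Depth limits single acceptors: only 13 of 255 had 10 reads.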
